A study of Mus musculus with 8 samples.

Results

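*Dcn* and *Col14a1* are genes of the extracellular matrix whose RNA was low in mouse embryonic fibroblasts (MEFs) expressing *EZHIP* or lacking *EED*, and high in MEFs expressing H3.3 K27M. They were chosen for that pattern in these same libraries, as 2 of the 875 genes in the deposited table. Their levels in each group against control, and in K27M against EZHIP, are therefore a description and carry no test. The difference of EED-null from EZHIP was not itself part of that pattern but rests on the same values, so its p-values are also descriptive.

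Decorin, the product of *Dcn*, is a small leucine-rich proteoglycan that binds collagen fibrils and limits their diameter, and it also binds growth factors and growth factor receptors. *Col14a1* encodes the chain of collagen XIV, a fibril-associated collagen with interrupted triple helices that lies on the surface of collagen I fibrils and also binds decorin. Both proteins are products of connective tissue fibroblasts, and both are found in skin and tendon.

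Total RNA depleted of ribosomal RNA was sequenced from 4 groups of MEFs with 2 libraries each. Control cells were the parental MEFs, in which loxP sites flank exons of *EED*, a gene for a core subunit of the histone H3 lysine 27 methyltransferase PRC2. EZHIP cells carried a human *EZHIP* transgene and K27M cells a transgene for histone H3.3 with lysine 27 changed to methionine, and both products inhibit PRC2. EED-null cells came from the same floxed MEFs after Cre delivered by a lentivirus had removed *EED*. The question put to the genes here is where their levels differ between the 3 ways of lowering PRC2 activity.

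The model has limits. All 4 groups share the floxed parental MEFs, the EED-null group is a single clone, and the transgenes were brought in by lentivirus under the EF1a promoter with puromycin selection. The labels do not say that control cells received a virus. The values could not be used to check the loss of *EED*, since the mouse gene *Eed* is absent from the list. Nothing states that the libraries of a group came from separate cultures, so p-values measure only the spread between these libraries, which may be technical.

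Expression was given as RSEM's estimated reads of a gene divided by 1 size factor for the library, here called normalized expression, with no scaling for length. Only genes are listed that differed at least 2-fold between EZHIP and control cells. The estimated reads on its genes were 306290 and 424561 in the control libraries, 264279 and 269660 in EZHIP, 209390 and 294073 in EED-null, and 350472 and 400267 in K27M. *Dcn* (ENSMUSG00000019929.8) is on chromosome 10 (mm9, 96942245 to 96980777, plus strand). Its longest annotated coding transcript has 8 exons and 1758 bases, of which 1062 are coding. *Col14a1* (ENSMUSG00000022371.8) is on chromosome 15 (55139305 to 55352358, plus strand), and its longest coding transcript has 48 exons, 6457 bases and 5391 coding bases. Values are per gene, so the 2 annotated transcripts of *Dcn* and the 4 of *Col14a1* were not told apart.

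The normalized expression of *Dcn* was 364 and 380 in the control libraries and 129 and 179 in the EZHIP libraries. It was 69.3 and 73.6 in EED-null and 3192 and 3255 in K27M. No library of 1 group lay within the range of another, and the order from the lowest was EED-null, EZHIP, control and K27M. The group means were 71.5 ± 3.06, 154 ± 35.3, 372 ± 11.1 and 3224 ± 44.4 (SD, n = 2) in that order. Relative to the control mean, *Dcn* was 2.42-fold lower in EZHIP cells, 5.21-fold lower in EED-null cells and 8.66-fold higher in K27M cells. Relative to the group mean, the EZHIP libraries were the furthest apart. The 2 K27M libraries held 3442 and 3724 estimated reads against 50 and 76 in EED-null.

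*Col14a1* was at 248 and 272 in the control libraries and at 23.7 and 17.1 in the EZHIP libraries. The EED-null libraries had 13.9 and 12.6, and the K27M libraries 769.8 and 994. The order of the groups was that of *Dcn*, but here EZHIP and EED-null lay close together at the bottom. The means were 13.2 ± 0.895 in EED-null, 20.4 ± 4.65 in EZHIP, 260 ± 16.9 in control and 882 ± 159 in K27M (SD, n = 2). *Col14a1* was thus 12.8-fold lower in EZHIP cells, 19.7-fold lower in EED-null cells and 3.39-fold higher in K27M cells than in control. The low values rest on few reads, 20 and 15 in EZHIP and 10 and 13 in EED-null. Since these are whole cultures, fewer cells making a transcript and less of it per cell cannot be told apart.

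**Figure D1:**
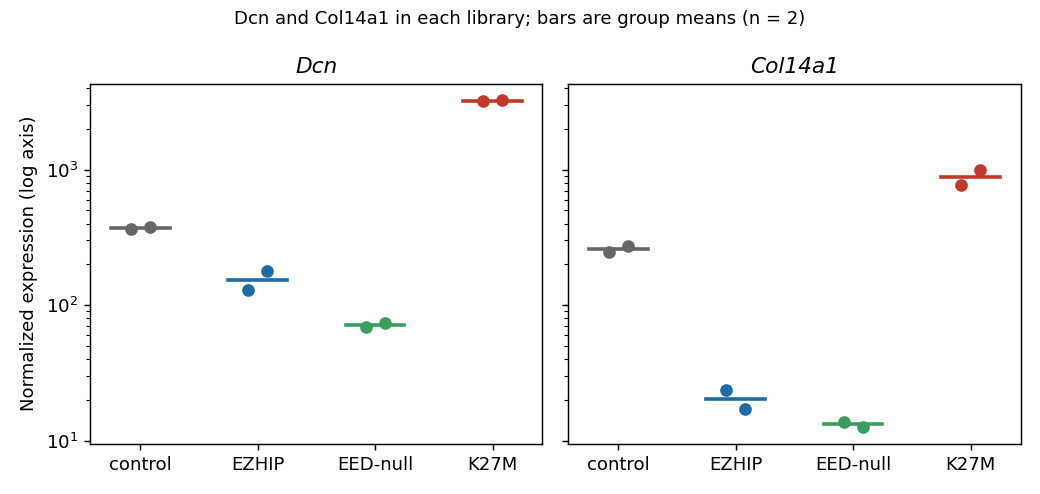
Normalized expression of *Dcn* and *Col14a1* (log axis) in each of the 8 libraries, as points, with the group mean as a bar. Both genes lie lowest in EED-null and highest in K27M, where *Dcn* reached 3192 and 3255 and *Col14a1* 769.8 and 994.

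As log2(value + 1), a scale on which changes of low values come out smaller, the difference from control for *Dcn* was -1.29 in EZHIP, -2.36 in EED-null and 3.11 in K27M, each with a standard error of 0.17. For *Col14a1* it was -3.63, -4.20 and 1.75, with a standard error of 0.20. *Dcn* therefore had the larger rise in K27M and *Col14a1* the deeper falls. Between K27M and EZHIP cells the genes were 20.9-fold and 43.3-fold apart. When the libraries were rescaled on the genes of the table, this moved the median difference from control of all listed genes by -0.32 in EZHIP, -0.39 in EED-null and -0.43 in K27M, and that of K27M from EZHIP by -0.12. With it, *Dcn* stood at 2.65 above control in K27M and *Col14a1* at 1.29, and both genes stayed below control in EZHIP and EED-null.

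Among the 380 listed genes with a lower mean in EZHIP than in control, *Dcn* had the second highest difference of K27M from control, after *Fry* at 3.74, a gene named after its values were seen. *Col14a1* was in place 27 of the 380 by the same measure. Per kb of transcript, *Dcn* had the higher level of the pair in every group. Its mean per kb was 211.8 in control, 87.6 in EZHIP, 40.7 in EED-null and 1834 in K27M. For *Col14a1* the means per kb were 40.3, 3.16, 2.05 and 136.6.

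The difference between EED-null and EZHIP cells was not a criterion in choosing the genes. The choice did use the values of both groups, so the limma results below describe these libraries and are not an independent test. *Dcn* was 2.15-fold lower in EED-null, and both EED-null libraries lay below both EZHIP libraries. The log2 difference was -1.08 (standard error 0.17, 95% interval -1.48 to -0.67, adjusted p = 0.00174 from limma with Benjamini-Hochberg adjustment over the 875 genes). *Dcn* thus passed both thresholds used for a call, an adjusted p under 0.05 and a difference of at least 2-fold. The 95% counting intervals of its values, 51.4 to 91.4 and 58.0 to 92.2 in EED-null against 106 to 156 and 152 to 209 in EZHIP, did not overlap. They cover counting error only. Without EZHIP replicate 2 the log2 difference was -0.84, which is under 2-fold, and the call was lost, with an adjusted p of 0.00370 from limma that lay within the range of 5.59e-05 to 0.0128 over all alternatives.

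*Col14a1* was 1.54-fold lower in EED-null than in EZHIP, a log2 difference of -0.57 (standard error 0.20, 95% interval -1.05 to -0.09, adjusted p = 0.0406 from limma with the same adjustment). This is under 2-fold, so it was not called. Again both EED-null libraries lay below both EZHIP libraries, but the counting intervals overlapped, with 6.65 to 25.5 and 6.71 to 21.5 in EED-null and 14.5 to 36.6 and 9.57 to 28.2 in EZHIP. Over the alternatives the adjusted p from limma ranged from 0.0178 to 0.180, and without EZHIP replicate 1 the log2 difference was -0.35, with the highest of these p-values. At this depth the counting intervals of EZHIP and EED-null were thus apart for *Dcn* and overlapped for *Col14a1*. The order of these groups is a description, since the choice of the genes used the same values. In this comparison 1 of the 2 genes was called, against 44.9% of all listed genes called in either direction and 19.8% called lower. The exact permutation test, with 2 libraries in each group, has a smallest two-sided p of 0.333, so these calls depend on limma pooling the spread over groups and genes.

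The ratio of *Dcn* to *Col14a1* within a library does not depend on the size factor. It was 1.47 and 1.40 in the control libraries, 5.45 and 10.5 in EZHIP, 5.0 and 5.85 in EED-null, and 4.15 and 3.27 in K27M. All 6 libraries outside control lay above both control libraries, so the balance of the pair moved toward *Dcn* where both genes were low and also where both were high. In EZHIP and EED-null the higher ratio went with the deeper fall of *Col14a1*, and in K27M with the larger rise of *Dcn*. The EZHIP and EED-null libraries overlapped. The ratio comes from the values on which the genes were chosen, so it is a description and carries no test. With 1 added to each value, the log2 ratio in K27M exceeded that in control by 1.37, and by 1.2 to 1.54 with 1 library left out.

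**Figure D2:**
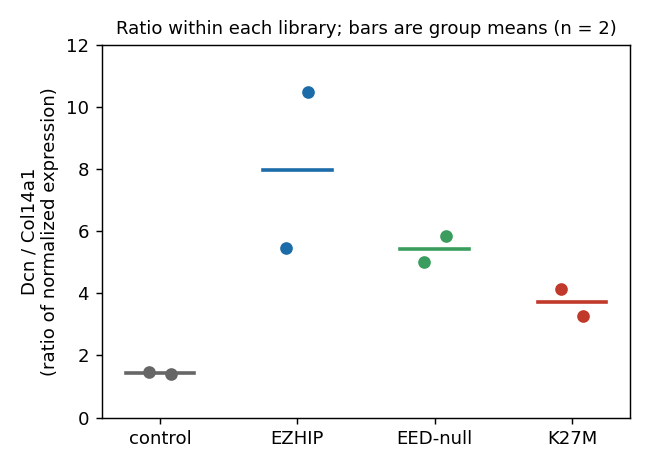
Ratio of the normalized expression of *Dcn* to that of *Col14a1* in each library (points) with the group mean (bars, n = 2), on an axis that starts at 0. The control libraries lie at 1.47 and 1.40, below the 6 other libraries, and the EZHIP libraries are the furthest apart, at 5.45 and 10.5.

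Of 18 small leucine-rich proteoglycans looked for, 5 were in the table, *Dcn* and 4 others. In EZHIP cells 4 of the 4 others were called lower by limma, beside 43.1% of all listed genes called lower, 56% called higher and 99.1% called in either direction, and the table itself was selected on that comparison. In EED-null cells 4 of the 4 were lower, beside 25.1% of all listed genes lower, 39.9% higher and 65% in either direction. In K27M cells 3 of the 4 were lower, beside 20% of all listed genes lower, 41.4% higher and 61.4% in either direction. There limma called 0 of the 4 higher, also at an unadjusted p under 0.05, since all 4 lay below control. These 4 listed genes thus matched *Dcn* in direction in EZHIP and EED-null and not in K27M, and the others looked for are not in the table.

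*Aspn*, which encodes asporin, a close relative of decorin, had 1631 and 1701 in control and 290 and 216 in K27M. It fell to 101 and 92.1 in EED-null, below its EZHIP values of 468 and 524. Its order of EED-null below EZHIP was that of *Dcn*, whereas its K27M libraries lay between those groups and not above control. *Prelp*, for a proteoglycan thought to link basement membranes to connective tissue, went from 857 and 836 in control to 348 and 312 in EZHIP, 12.5 and 19.4 in EED-null and 37.1 and 55.9 in K27M. *Ogn*, which encodes osteoglycin, had 2990 and 3032 in control cells, 1218 and 1697 in EZHIP, 1120 and 1160 in EED-null and 1057 and 804 in K27M. Its call in EZHIP was lost without EZHIP replicate 1, with a log2 difference of -0.83. *Fmod*, for the collagen-binding proteoglycan fibromodulin, was the member not called in K27M. Its values were 247 and 258 in control cells, 79.3 and 70.7 in EZHIP, 103 and 66.9 in EED-null and 201 and 236 in K27M, so it was low where *Dcn* was low but did not pass control in K27M. *Lum*, *Kera* and *Epyc*, which lie on chromosome 10 next to *Dcn* and belong to the same family, are not among the listed genes.

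Of 45 collagen genes looked for, 6 were in the table. Besides *Col14a1*, 4 of 5 were called lower and 1 higher by limma in each of EZHIP, EED-null and K27M cells. All listed genes were called lower for 43.1% and higher for 56% in EZHIP, on which the table was selected, 25.1% and 39.9% in EED-null, and 20% and 41.4% in K27M. *Col3a1* encodes the chain of the fibrillar collagen III. Its libraries were at 17665 and 17245 in control cells, 6797 and 6268 in EZHIP, 5733 and 5641 in EED-null and 2206 and 2517 in K27M. It was therefore lowest in the group in which *Col14a1* was highest. *Col11a1*, for a chain of collagen XI that is incorporated in fibrils, had the same order, with means of 2052 ± 36.9 in control, 849 ± 16.2 in EZHIP, 593 ± 3.13 in EED-null and 188 ± 4.21 in K27M (SD, n = 2). *Col6a4* was at 52.4 and 47.2 in control and at 0.927 and 1.75 in K27M, which are 1 and 2 reads. *Col19a1*, for another fibril-associated collagen, was at 85.2 and 76.8 in control and between 0.969 and 5.92 in the 6 other libraries. *Col28a1* was the 1 gene called higher, from 1.03 and 0 in control to 16.6 and 27.4 in EZHIP, 4.16 and 6.78 in EED-null and 13.9 and 9.62 in K27M. In EED-null the calls of *Col6a4* and *Col28a1* were lost with a pseudocount of 5, at log2 differences of -0.91 and 0.92, and that of *Col6a4* also without EED-null replicate 2 (-0.97) or control replicate 1 (-0.94).

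**Figure D3:**
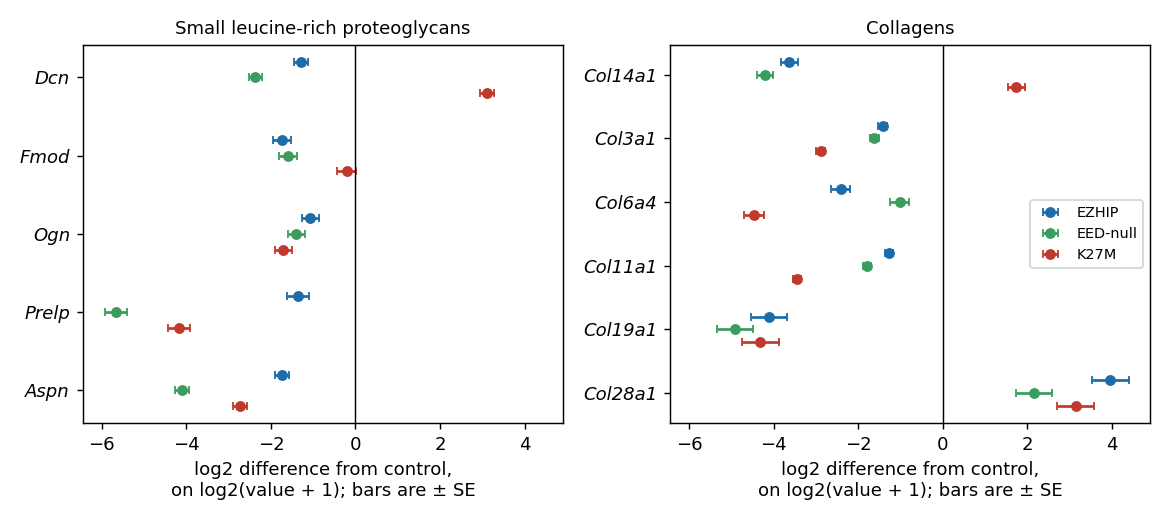
Log2 difference from control in EZHIP, EED-null and K27M cells for the listed small leucine-rich proteoglycans and collagens, on log2(value + 1), with standard errors from limma. *Dcn* at 3.11 and *Col14a1* at 1.75 lie right of 0 in K27M and left of it in EZHIP and EED-null, whereas *Col28a1* lies right of 0 in all 3 groups and the other genes lie left of it.

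Over 5 lists of matrix genes, which also take in glycoproteins, collagen processing enzymes, and proteases with their inhibitors, 49 genes other than *Dcn* and *Col14a1* were in the table. In K27M cells limma called 10 of the 49 higher (20.4%) and 23 lower (46.9%) than control, against 41.4% and 20% of all listed genes, with a median log2 difference of -0.87 against 0.58. In EED-null cells 13 were higher and 25 lower, against 39.9% and 25.1% of all listed genes, with a median of -1.01 against 0.40. In EZHIP cells 18 were higher and 31 lower, against 56% and 43.1%, with a median of -1.14 against 1.16. Most matrix genes in the table that passed the test in K27M were thus below control, the side opposite to *Dcn* and *Col14a1*. The table was selected on EZHIP against these same control libraries, so the EED-null and K27M shares also come from selected genes. After rescaling, 9 of the 49 were higher and 28 lower in K27M, and the shares of all listed genes were 34.7% higher and 27.8% lower. In EED-null 11 were higher and 28 lower, against 35.5% and 32.1% of all listed genes.

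Lower in EZHIP and EED-null and higher in K27M, each called against control, were 33 of the 875 genes, or 3.77%. *Dcn* and *Col14a1* are among them by choice, and 0 of the 49 other matrix genes were. After rescaling the pattern was called for 25 genes, again with 0 of the 49. At an unadjusted p under 0.05 from limma with no fold threshold the pattern held for 59 genes, 1 of which was among the 49. That gene was *Adamts20*, which encodes a secreted metalloprotease that cleaves the proteoglycan versican, and which was named after its values were seen. Its means were 165 in control, 11.6 in EZHIP, 112 in EED-null and 321 in K27M. The share of the matrix genes that show the pattern was not tested against the other listed genes.

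Between K27M and EZHIP cells 6 of the 49 were called higher in K27M and 20 lower, beside 32.6% and 26.2% of all listed genes. The 6 were *Adamts3*, *Adamts15*, *Adamts20*, *Adamtsl1*, *Eln* and *Fmod*, of which *Adamts15*, *Adamts20*, *Adamtsl1* and *Eln* were named after their values were seen. *Eln*, which encodes elastin, the core of elastic fibres, was called lower in EZHIP and EED-null, with means of 92.5 and 84.7 against 2402 in control, log2 differences of -4.69 and -4.82 that are larger falls than those of *Col14a1*. In K27M it was at 1569, below control and not called. *Adamts3*, for a protease that trims procollagen ends, had 57.5 and 53.9 in control cells, 0 and 1.14 in EZHIP, 37.4 and 25.2 in EED-null and 86.3 and 102 in K27M. Its drop was thus found in EZHIP, and its EED-null and K27M values were not called different from control. After rescaling, *Adamts3* was called lower in EED-null, at a log2 difference of -1.22, and *Eln* lower in K27M, at -1.08. Between EED-null and EZHIP 9 of the 49 were called higher and 9 lower, beside 25.1% and 19.8% of all listed genes.

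None of the genes named from the other matrix lists, those with the highest means, was called in the direction of *Dcn* and *Col14a1* in all 3 groups. Of the glycoproteins, *Nid1*, a basement membrane linker, was called lower in all 3 groups, with means of 5689 in control, 2569 in EZHIP, 2363 in EED-null and 1230 in K27M. *Fbn1*, which encodes the microfibril protein fibrillin, went from 4738 in control to 2062 in EZHIP and 1389 in EED-null, and its K27M mean of 2597 was not called. *Cyr61*, for a matricellular protein, was called higher in EZHIP, at 6570 against 3015. Its EED-null mean of 5854 was 1.94-fold above control, just under the fold threshold, and its K27M mean of 3842 was not called either. Of the processing enzymes, *Plod2*, a collagen lysyl hydroxylase, was called lower in all 3 groups, from 1938 to 951 in EZHIP, 768 in EED-null and 889 in K27M. *Adamts1*, a protease of large proteoglycans, and *Serpine2*, an inhibitor of serine proteases, were likewise called lower in all 3. *Timp3*, an inhibitor of matrix metalloproteases, was called higher in EZHIP and K27M, with means of 1874 in control, 7002 in EZHIP, 2470 in EED-null and 9389 in K27M. *Htra1*, a serine protease, was called higher in EZHIP, at 1530 against 674, and in EED-null, at 1565. After rescaling, the calls of *Cyr61* in EZHIP (log2 difference 0.81) and of *Htra1* in EZHIP (0.86) and EED-null (0.82) were lost, and *Fbn1* was called lower in K27M (-1.33).

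Of 20 genes whose products bind decorin or signal through its receptors, 3 were in the table. *Egfr*, a receptor to which decorin binds, was at 2150 and 2132 in control cells, 808 and 703 in EZHIP, 1056 and 979 in EED-null and 1953 and 2318 in K27M. *Igf1*, a ligand of another such receptor, was at 2822 and 2909 in control cells, 647 and 670 in EZHIP, 1257 and 1267 in EED-null and 2727 and 2420 in K27M. Like *Dcn*, both were low in EZHIP and EED-null, where limma called them lower, and neither was called in K27M. *Kdr*, the main receptor of vascular endothelial growth factor, was at 9.24 and 9.60 in control and was called higher in EZHIP, at 52.1 and 51.3, and in K27M, at 157 and 222. In EED-null *Kdr* was at 11.1 and 10.7 and was not called against control. All 3 were called higher in K27M than in EZHIP, beside 32.6% of all listed genes.

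Within 1 Mb of *Col14a1*, 2 other genes were listed, and none within 1 Mb of *Dcn*. *Nov*, for a matricellular protein, lies on the plus strand of chromosome 15 from 54577257 to 54585594. Its expression was 8809 and 8885 in control cells, 2296 and 2239 in EZHIP, 900 and 830 in EED-null and 669.6 and 629 in K27M. It was called lower in all 3 groups, and so ran with *Col14a1* in EZHIP and EED-null and against it in K27M. *Enpp2*, which encodes the secreted enzyme autotaxin, lies on the minus strand from 54670453 to 54751701 and was at 171 and 165 in control. It was called higher in EZHIP, at 402 and 370, and in K27M, at 815 and 726, and was at 180 and 173 in EED-null. Its call in EZHIP was lost after rescaling, at a log2 difference of 0.88. Neither neighbour followed *Col14a1* through all 4 groups.

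Likeness of pattern was measured as Pearson's r over the 8 libraries on log2(value + 1), over the 871 genes whose mean reached at least 5. The libraries form 4 groups of 2 and all genes of a library share its size factor, so r mainly compares group means and is given with no test. The genes most like *Dcn* were *Rsad2* (r = 0.998, Spearman's rho = 1), *Gbp3* (r = 0.993), *Ddx60* (r = 0.992), *Usp18* (r = 0.990) and *Igtp* (r = 0.983). Those most like *Col14a1* were *Ddx58* (r = 0.995), *Stat2* (r = 0.995), *Irgm2* (r = 0.994), *Gbp6* (r = 0.994) and *D14Ertd668e* (r = 0.993). The 10 genes are all distinct, and none of them is on a matrix list. *Dcn* and *Col14a1* themselves had r = 0.938 and rho = 0.952, which put *Col14a1* in place 31 for *Dcn* and *Dcn* in place 58 for *Col14a1*.

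A high r does not mean changes of the same size. *Rsad2* was at means of 242 in control, 114 in EZHIP, 73.4 in EED-null and 1147 in K27M, and its log2 difference of K27M from control, 2.24, was smaller than the 3.11 of *Dcn*. *Ddx58* was 2.03-fold lower in EZHIP (not called without EZHIP replicate 2), where *Col14a1* was 12.8-fold lower, and its K27M difference was not called. Of the 5 genes most like it, *D14Ertd668e* came nearest to *Col14a1* in size, with means of 159 in control, 11.2 in EZHIP, 6.79 in EED-null and 511 in K27M.

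**Figure D4:**
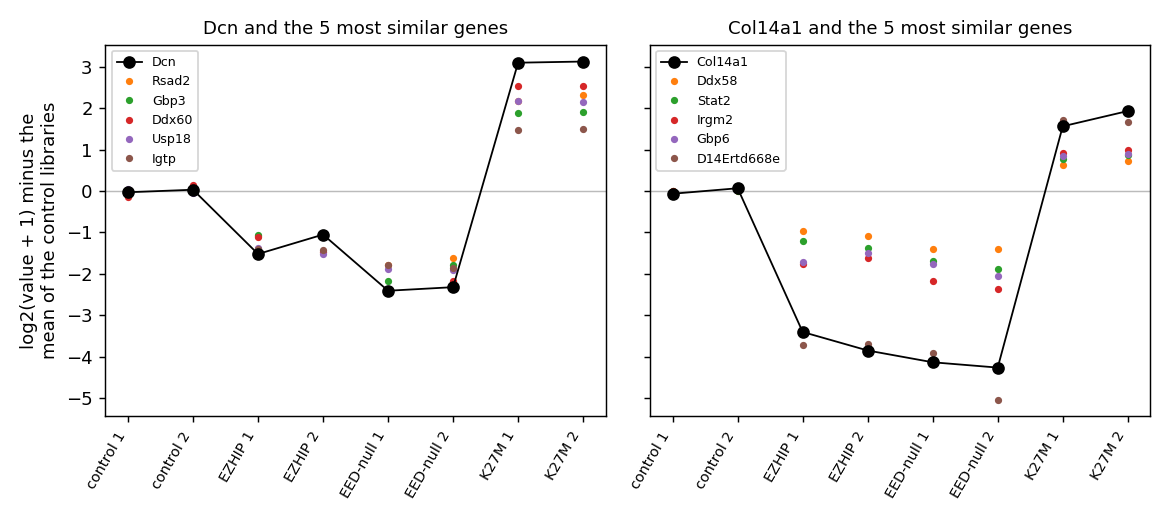
Log2(value + 1) minus the mean of the control libraries, in each of the 8 libraries, for *Dcn* (left) and *Col14a1* (right) as black points joined by a line to guide the eye, and for the 5 genes with the highest Pearson's r with each as coloured points. *D14Ertd668e* runs close to *Col14a1*, whereas *Ddx58*, *Stat2*, *Irgm2* and *Gbp6* turn in the same groups by smaller amounts.

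Of 16 fibroblast markers, 4 were in the table, namely *Dcn*, *Col14a1*, *Col3a1* and *Fap*, so the identity of the cells could not be checked with the others. The summed normalized expression of the 4 was 18360 and 17992 in control cells, 6958 and 6478 in EZHIP, 5819 and 5736 in EED-null and 6330 and 6870 in K27M, on a scale not corrected for length. *Col3a1* had the highest value of the 4 in the control, EZHIP and EED-null libraries, and *Dcn* in both K27M libraries, so the K27M sums rest in large part on a gene chosen for being high there. Without *Dcn* and *Col14a1* the sums of *Col3a1* and *Fap* were 17747 and 17339 in control cells, 6805 and 6281 in EZHIP, 5736 and 5650 in EED-null and 2368 and 2621 in K27M. *Fap*, for a membrane protease of activated fibroblasts, was at 82.1 and 94.5 in control cells, 8.28 and 13.7 in EZHIP, 2.77 and 8.72 in EED-null and 162 and 104 in K27M. It was called lower in EZHIP and EED-null, as *Dcn* and *Col14a1* were low there, and was not called in K27M.

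Markers of other cell types were looked for in the same table. The endothelial list had 1 of 5 genes listed, *Kdr*, with the values given above. The epithelial list had 1 of 4, *Epcam*, at 6.16 and 3.69 in control cells, 21.3 and 10.3 in EZHIP, 38.8 and 20.3 in EED-null and 68.6 and 81.3 in K27M. The chondrocyte list had 1 of 5, *Sox9*, at 18.5 and 28.8 in control cells, 95.9 and 100.3 in EZHIP, 83.2 and 71.7 in EED-null and 26.9 and 25.4 in K27M. The neural list had 1 of 4, *Sox2*, which was at 0 in all control and K27M libraries and at 166 and 137 in EZHIP and 245 and 270.2 in EED-null. *Sox9* and *Sox2* were thus high in the 2 groups in which *Dcn* and *Col14a1* were low, and *Kdr* and *Epcam* were highest where they were high. Their part in the result was not tested. Markers of smooth muscle, tendon cells, adipocytes and macrophages had 0 genes in the table.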

How the data were processed

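The authors depleted ribosomal RNA, sequenced the libraries and estimated reads per gene with RSEM (version 1.2.4 and build mm9 per the submitters' processing notes). Their methods name EBSeq for differential expression. The signal in the deposited table is normalized expression, that is estimated reads divided by 1 size factor a library. RNA from other cells was spiked into the samples, and whether it entered the size factors is not given in the sources used here, so differences in total RNA may not show.

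Reads were recovered from the step between values. Between 71.8% and 82.3% came out whole (tolerance 0.002 reads), so no count model was fitted. Replicates differed by more than sampling noise, with a chi-square per gene between 1.57 and 3.65. limma 3.58.1 (R 4.3.3) fitted 4 group means to log2(value + 1) from the 8 libraries, and p-values were adjusted over the 875 genes (Benjamini-Hochberg). A call needed an adjusted p under 0.05 and at least 2-fold on that scale. Folds are ratios of group means. An exact permutation test of the ratio of *Dcn* to *Col14a1* was planned and is not reported, since the genes were chosen on the same values. Counting intervals are exact Poisson intervals. Other steps used Python 3.11.15, pandas 2.3.3, numpy 2.4.6, scipy 1.17.1 and matplotlib 3.10.9. Positions came from an mm9 annotation, in which 850 gene names had 1 locus.

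The members and the gene lists were chosen with earlier results of these data known. Named genes are *Dcn* and *Col14a1*, the listed small leucine-rich proteoglycans, collagens and decorin partners, the 4 highest by mean in each other matrix list, the 5 most alike each member, and neighbours within 1 Mb. Outside this rule, *Fap*, *Epcam*, *Sox9* and *Sox2* are named as the listed genes of the marker lists, and *Fry*, *Eln*, *Adamtsl1*, *Adamts15*, *Adamts17*, *Adamts20*, *Ltbp1* and *Gpc1* were named after their values were seen. The alternatives were pseudocounts of 0.1 and 5, a mean of at least 5, limma with a trend, rescaling on the listed genes, the adjusted p alone, a fit of only the 2 groups compared, the replicate number as a block, and each library left out.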

Additional observations from a re-analysis of the deposited data

Results flagged for a closer look

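In 8 of the 51 listed matrix genes both K27M libraries lay on the opposite side of control from both EZHIP libraries. *Dcn* and *Col14a1* are among the 8 by choice, and the other 6 are 12.2% of the remaining 49, beside 19.9% of all 875 listed genes. The 8 were picked for that, so the difference of K27M from EZHIP is given on the log2(value + 1) scale as a description. It was not tested for *Dcn* and *Col14a1*. The other 6 were called between K27M and EZHIP by limma in the fit over the 875 genes, beside 58.7% of all listed genes. They were picked on these same values, so these calls restate the choice and are no test. Of the 6, *Ltbp1* was also called on opposite sides of control, higher in EZHIP and lower in K27M. Its K27M call was lost without K27M replicate 1, at a log2 difference of -0.9995. The other 5 were called against control in EZHIP and not in K27M. After rescaling, *Gpc1* lost its EZHIP call (log2 difference 0.78) and *Adamts17* was called lower in K27M (-1.31). *Adamts17* was also called lower in K27M without K27M replicate 2 (-1.02) or control replicate 1 (-1.03). *Adamts20* was called higher in K27M without K27M replicate 1 (1.13). The difference of K27M from EZHIP was 4.40 for *Dcn* and 5.37 for *Col14a1*. *Adamts3* was higher in K27M by 6.02, *Adamts20* by 4.66 and *Adamts15* by 2.89. The size for *Adamts3* depends on the added 1, since its EZHIP libraries held 0 and 1 reads. In the other direction, with EZHIP above and K27M below control, the differences were -3.67 for *Adamts17*, -2.42 for *Ltbp1* and -1.49 for *Gpc1*. Of these genes, *Adamts15*, *Adamts17*, *Adamts20*, *Ltbp1* and *Gpc1* were named after their values were seen. Group means were 952 in control, 2465 in EZHIP and 459 in K27M for *Ltbp1*, and 1270.5, 2722 and 968 for *Gpc1*.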

How the results depend on the processing

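Of 217 values for *Dcn*, *Col14a1* and the counts of matrix genes computed under the alternatives, 207 held and 0 changed direction. A tested value held if it kept its direction and its side of the threshold, which for a gene was its call. A count of calls held if it stayed within 1.5 times the original count. A level held if it moved by less than the SDs of both groups compared, combined as the root of their summed squares. *Col14a1* in EED-null against EZHIP was under 2-fold and not called, so it counted as held in all 15 alternatives. Its adjusted p from limma was under the threshold at 0.0406, but not with the replicate block (0.0653) or only the 2 groups compared (0.0617). It stayed under in the other alternatives that kept all libraries. The number of values that held thus does not show that this p held. With each library left out in turn, the log2 difference of EED-null from EZHIP lay between -1.31 and -0.84 for *Dcn* and between -0.80 and -0.35 for *Col14a1*, and the log2 ratio of the pair in K27M above control between 1.2 and 1.54. The planned exact permutation test of that ratio over the groups, which is not used as a result, is counted among the 217. Also counted there as held are levels under the replicate block or without a library of a group not compared, which could not move. A group left with 1 library was assumed to vary like the others. Over all alternatives, matrix genes called against control numbered 44 to 49 for EZHIP, 31 to 43 for K27M and 36 to 46 for EED-null, and between groups 23 to 43 in K27M against EZHIP and 16 to 31 in EED-null against EZHIP. With 1 library left out the ranges were 47 to 49, 31 to 34, 37 to 38, 23 to 26 and 17 to 19 in the same order. After rescaling, the calls against control were 44 for EZHIP, 37 for K27M and 39 for EED-null. With the adjusted p alone, 43 of the 49 were called in K27M against control (14 higher, 29 lower) in place of 33, beside 51.4% of all listed genes higher and 28% lower. In EED-null against control 46 were called (18 higher, 28 lower) in place of 38, beside 49.3% and 34.1%. Between K27M and EZHIP 43 were called (14 higher, 29 lower) in place of 26, beside 44% and 37.1%, and between EED-null and EZHIP 31 (11 higher, 20 lower) in place of 18, beside 37.3% and 31.4%. Dropping the fold threshold can only add calls. Rescaling moved *Dcn* in EED-null to -2.76 and *Col14a1* to -4.59, and a pseudocount of 5 moved the latter to -3.86. With the replicate number as a block, the adjusted p from limma for *Col14a1* in EED-null against EZHIP was 0.0653 and that for *Dcn* 0.00240, and the log2 ratio in K27M above control was 1.37. Neither gene's call changed under the block. Of 3300 calls for the 44 other named genes (*Fry* not included) under the alternatives other than the adjusted p alone, 3254 were unchanged, 27 were lost, 19 were gained and 0 changed direction. With the adjusted p alone, 38 of their 220 comparisons gained a call and the others were unchanged. Same-numbered libraries did not deviate together over the listed genes, with correlations between -0.09 and 0.11. This cannot show whether they were prepared together, which the labels do not say. Depth limits the precision of *Col14a1*, which had 10 to 20 reads in the EZHIP and EED-null libraries.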
